A study of Homo sapiens with 8 samples.

Results

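A stretch of the chromosome 1 long arm, 165 to 200 Mb on hg19, which runs from the end of 1q23 through 1q24, 1q25 and 1q31 to the start of 1q32, was examined for regions of γH2AX in A2780 cells. Its members were chosen by position: every deposited peak on chromosome 1 whose midpoint lies in these 35.0 Mb. They number 5021 of the 54434 peaks deposited in 3 lists, with 32 of 10090 in untreated cells, 3533 of 26121 in cells on cisplatin and 1456 of 18223 in cells on Pt-ttpy. The limits were chosen from the peak counts of these same lists, so the counts, densities, spacing, widths and overlaps given here describe these lists and carry no test.

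A2780 is a human ovarian carcinoma cell line. The 8 samples form 4 groups of 2: cells without drug, cells on cisplatin, cells on Pt-ttpy, and input chromatin taken from cells without drug, which was not analysed here. Treatment lasted 96 hours at the IC80 of each drug, the dose that gives 80% inhibition. Chromatin was immunoprecipitated with an antibody to γH2AX and sequenced. Both samples of a group are tied by the labels to the same list, so each list is taken as 1 sample without replicates. Both treated lists are named in the labels for the drug and for untreated together. Whether this makes the untreated samples their control is not stated. The deposited −log10 p of each list is reproduced with 1 constant background for the whole list, to within 0.00023. The regions were thus not scored against untreated signal at their own place. The labels do not say whether the paired samples came from separate cultures.

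γH2AX is histone H2AX phosphorylated by the kinases ATM, ATR and DNA-PK when DNA breaks or replication forks stall, and it spreads along the chromatin on either side of the lesion. Cisplatin binds neighbouring purines and crosslinks DNA, which blocks replication and transcription. Pt-ttpy is a platinum complex with a terpyridine ligand that binds G-quadruplexes, folded structures of guanine-rich DNA. Chromosome bands that stain dark with Giemsa, such as 1q31.1 and 1q31.3, are in general rich in A and T, poor in genes and late to replicate. Bands 1q24 to 1q31 also carry known gene families, among them the selectins in 1q24, flavin monooxygenases in 1q24, regulators of G protein signalling in 1q25 and 1q31, and the complement factor H family in 1q31. Gene positions on hg19 were not used here, so the gene deserts after which the stretch was named could not be checked, and no region below is assigned to a gene. Sequences of the regions were not used here.

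γH2AX regions were present in every 1 Mb window of the stretch after either drug, and few were kept in the deposited untreated list. The density was 0.914 regions per Mb in the untreated list as deposited, 101 in the cisplatin list and 41.6 in that of Pt-ttpy. The untreated value rests on 32 kept of 1256 peak numbers that span the stretch (2.55%, where 51.0% of the whole untreated list was kept), and with all of these numbers counted it is 35.9 per Mb. As deposited, the stretch held 0.330% of the untreated list on chromosomes 1 to 22 and X (exact binomial 95% interval 0.226% to 0.465%), 13.8% of the cisplatin list (13.3% to 14.2%) and 8.18% of the Pt-ttpy list (7.79% to 8.60%). These intervals cover counting error only. Cisplatin regions outnumbered Pt-ttpy regions by 2.43 to 1 (2.28 to 2.58 by counting error), against 1.44 to 1 over chromosomes 1 to 22 and X. The parts of the arm measured on either side of the stretch were sparser. Before the stretch, over 15.0 Mb, cisplatin regions numbered 55.1 per Mb and Pt-ttpy regions 24.1, and in the 49.2 Mb after it 53.9 and 21.8. The ratio of the drugs was 2.29 (2.02 to 2.60) before and 2.48 (2.31 to 2.66) after. The lists differ in the constant background behind their folds, with a background pileup of 2.33 for untreated, 4.78 for cisplatin and 5.18 (after scaling by 0.798) for Pt-ttpy. With 1 list per condition, drug and calling depth cannot be told apart. Among the 9709 highest regions of each treated list, as many as the untreated list holds, 64 cisplatin and 41 Pt-ttpy regions lay in the stretch, a ratio of 1.56.

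Most of these regions stood only a few reads above the calling limit. A fold here is the pileup of reads at the summit over a background that is constant through the list, so it can be read back as a number of reads. The cisplatin regions had a median of 17 reads, where the lowest region of the whole list had 14, and 50% of them lay between 16 and 19. Of the 3533, 3038 (86.0%) lay within 5 reads of that lowest pileup, against 46.1% of the whole list. The Pt-ttpy regions had a median of 23 reads, where the lowest of that list had 19, and 1107 (76.0%) lay within 5 reads of it, against 26.7% of the whole list. Only 18 cisplatin regions (0.509%) and 26 Pt-ttpy regions (1.79%) stood more than 10 reads above the lowest. Whole-list shares were not computed for this limit. A read is a fold step of 0.173 in the cisplatin list and 0.129 in the Pt-ttpy list, so these counts do not compare the drugs. By the deposited -log10 q, too, the regions were low within their own lists: 262 cisplatin regions (7.42%) reached 5 or more, where 46.9% of the whole cisplatin list did. So did 70 Pt-ttpy regions (4.81%), where 57.6% of that whole list did, and 8 of the 32 untreated regions (25.0%), where 73.9% of that list did. The 262 stronger cisplatin regions were scattered, with at least 1 in each of the 35 windows of 1 Mb, and the 70 stronger Pt-ttpy regions fell in 29 of them.

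**Figure D1:**
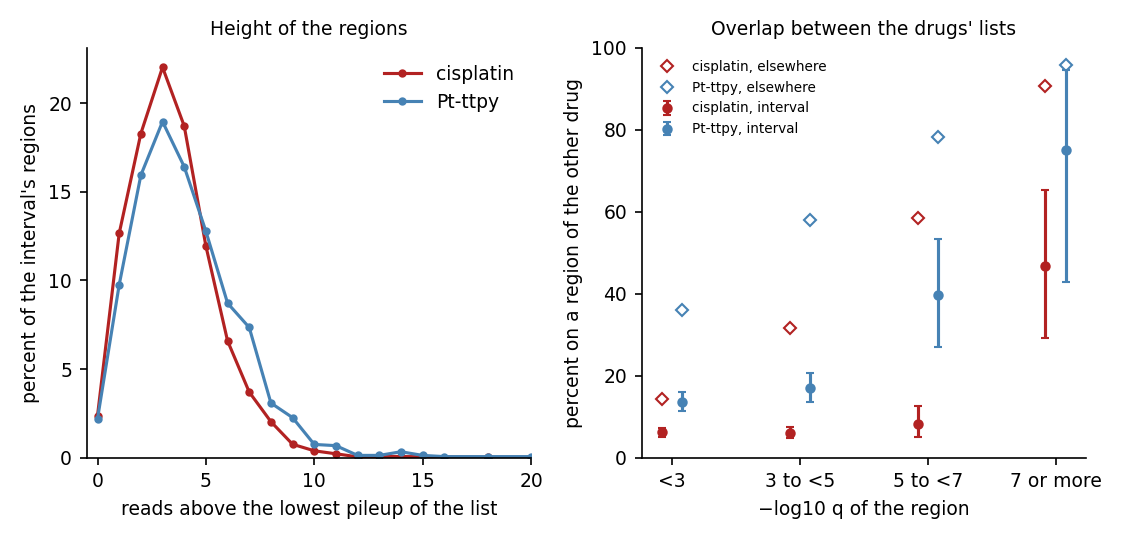
Left, percent of the regions of the stretch (y axis) by the number of reads above the lowest pileup of their own list (x axis, shown up to 20 reads), for cisplatin and Pt-ttpy. Right, percent of regions lying on a region of the other drug's list, by -log10 q, with filled points and exact binomial 95% intervals for the stretch and open diamonds for chromosomes 1 to 22 and X outside it. Both curves peak 3 reads above the limit, and each filled point lies below its open diamond.

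The called regions were short. Median widths were 148 bp for cisplatin (range 101 to 712 bp) and 145 bp for Pt-ttpy (101 to 581 bp), below the sonicated fragment size of 200 to 700 bp, and 101 bp is the narrowest width of both lists. Together they covered 584 kb (1.67% of the stretch) after cisplatin and 233 kb (0.666%) after Pt-ttpy. Cisplatin regions of -log10 q 5 or more were no wider than weaker ones by median, at 148 bp each. The Pt-ttpy medians were 158 bp for the stronger and 144 bp for the weaker. The widest cisplatin region, at chr1:192006439-192007150, had 712 bp but a fold of 3.46 and 19 reads, and the widest Pt-ttpy region, at chr1:189358071-189358651, had 581 bp with a fold of 3.39 and 25 reads. Neither was among the high regions of its list. The 32 untreated entries, as deposited, had a median width of 98.5 bp and a range of 3 to 213 bp. Of these, 20 were under 101 bp wide and 9 had their summit outside their own limits, which occurred in 0 treated regions of the stretch. The untreated widths are therefore not taken as widths of regions as called, and are not compared with the treated ones.

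Density rose and fell along the stretch, and it did so together in both treated lists. Per 1 Mb window there were 22 to 198 cisplatin regions (median 98) and 5 to 99 Pt-ttpy regions (median 39), and all 35 windows held regions of both drugs. The variance of the counts was 22.1 times their mean for cisplatin and 14.4 times for Pt-ttpy. The densest cisplatin windows were 195 to 196 Mb (198 cisplatin, 77 Pt-ttpy and 1 untreated), 172 to 173 Mb (195, 93 and 4) and 192 to 193 Mb (184, 74 and 2). For Pt-ttpy they were 196 to 197 Mb (99 Pt-ttpy, 168 cisplatin and 2 untreated), 172 to 173 Mb and 195 to 196 Mb. The untreated list also had its highest count, 4, at 172 to 173 Mb, followed by 3 each at 180 to 181 Mb and 193 to 194 Mb. At the other end, 175 to 176 Mb held 22 cisplatin and 10 Pt-ttpy regions, 177 to 178 Mb held 28 and 12, 181 to 182 Mb held 31 and 5, and 165 to 166 Mb held 40 and 6. The untreated list kept no region in 15 of the 35 windows, among them 175 to 176, 177 to 178 and 181 to 182 Mb. Dense windows were thus found on both sides of sparse ones: the peak at 172 to 173 Mb lies 3 windows from the lowest cisplatin window of the stretch.

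**Figure D2:**
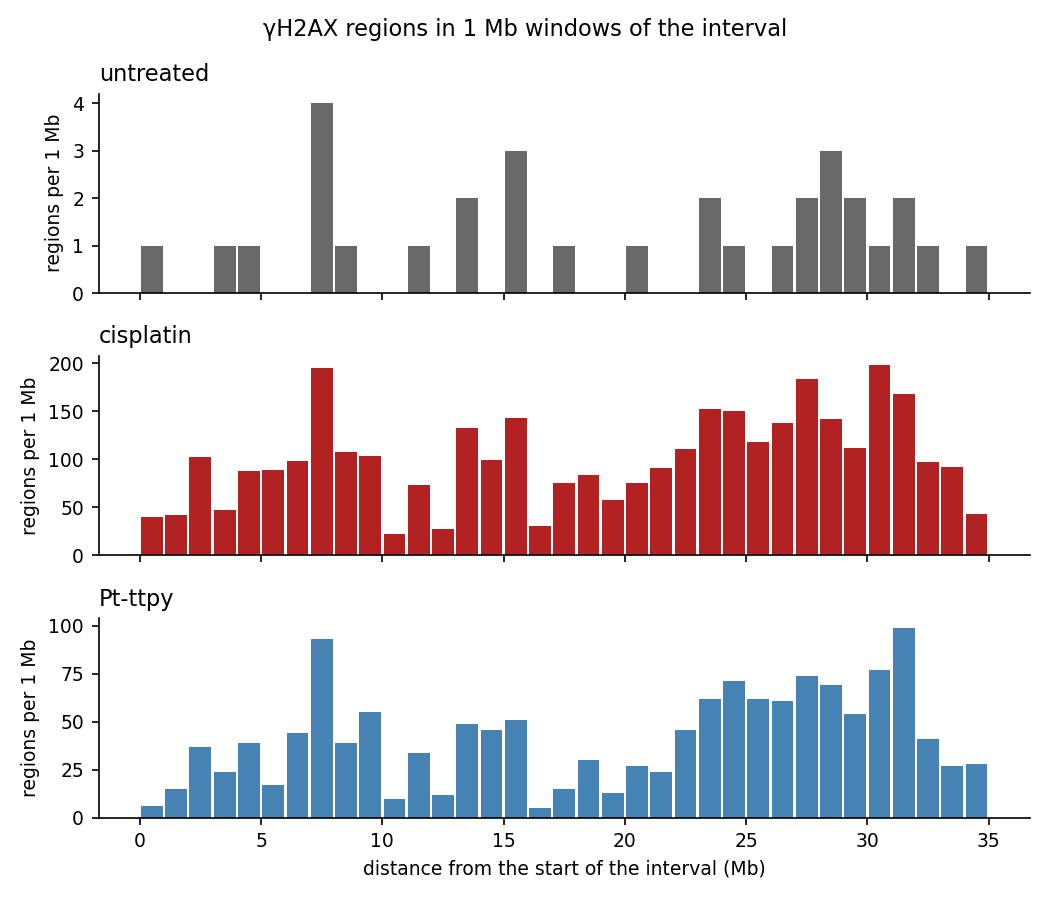
Number of γH2AX regions (y axis, a separate scale for each list) in the 35 windows of 1 Mb, by distance from the start of the stretch (x axis, Mb), for untreated, cisplatin and Pt-ttpy. Both treated lists have a peak 7 to 8 Mb from the start and a broad plateau from about 23 Mb on that ends at 32 Mb. The untreated counts are at most 4 per window.

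By chromosome band, with band limits entered from general knowledge of hg19 and not checked against a file, 1q31 was the densest. Its 12.9 Mb held 135 regions per Mb in the cisplatin list and 59.1 in the Pt-ttpy list. In 1q25, of the same length, these densities were 79.8 and 29.9, and in 1q24 they were 92.4 and 36.6. Within 1q31 the dark bands 1q31.1 and 1q31.3 held 125 and 137 regions per Mb after cisplatin and 51.6 and 61.4 after Pt-ttpy, and the light band 1q31.2 between them held 151 and 67.7. The light band 1q24.3 was as dense, at 145 per Mb after cisplatin and 68.0 after Pt-ttpy. The dark band 1q25.3 was sparse for both drugs, with 74.9 and 24.4. The label dark or light by itself did not part dense from sparse: the dark bands together had 102 regions per Mb after cisplatin and 41.2 after Pt-ttpy, and the light bands 99.6 and 42.3. The dark bands differed among themselves. Those outside 1q31 were sparser than those within it, with 83.8 and 31.1 in 1q24.2 and 78.4 and 34.5 in 1q25.1. Grades of dark staining were not told apart.

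The drugs' ratio varied less than the density. Cisplatin regions were more numerous in 35 of 35 windows, by 1.54 to 6.67 times (median 2.41). Pt-ttpy regions made up 29.2% of the treated regions of the whole stretch. By window the share was lowest at 165 to 166 Mb (6 Pt-ttpy and 40 cisplatin regions, 13%, exact binomial 95% interval 4.94% to 26.3%), 181 to 182 Mb (5 and 31, 13.9%, 4.67% to 29.5%), 170 to 171 Mb (17 and 89, 16.0%, 9.63% to 24.4%) and 182 to 183 Mb (15 and 76, 16.5%, 9.53% to 25.7%). It was highest at 199 to 200 Mb, where 28 Pt-ttpy and 43 cisplatin regions gave 39.4% (28.0% to 51.7%), and at 196 to 197 Mb, where 99 and 168 gave 37.1% (31.3% to 43.2%). The intervals held 29.2% in 31 of the 35 windows, among them 181 to 182 and 199 to 200 Mb. They treat regions as independent, cover counting error only, are not adjusted for the 35 windows and serve as no test. In windows of 5 Mb the ratio ran from 2.17 at 190 to 195 Mb to 3.44 at 180 to 185 Mb, while the median width stayed at 144.0 to 151.0 bp for cisplatin and 137.0 to 151.0 bp for Pt-ttpy.

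**Figure D3:**
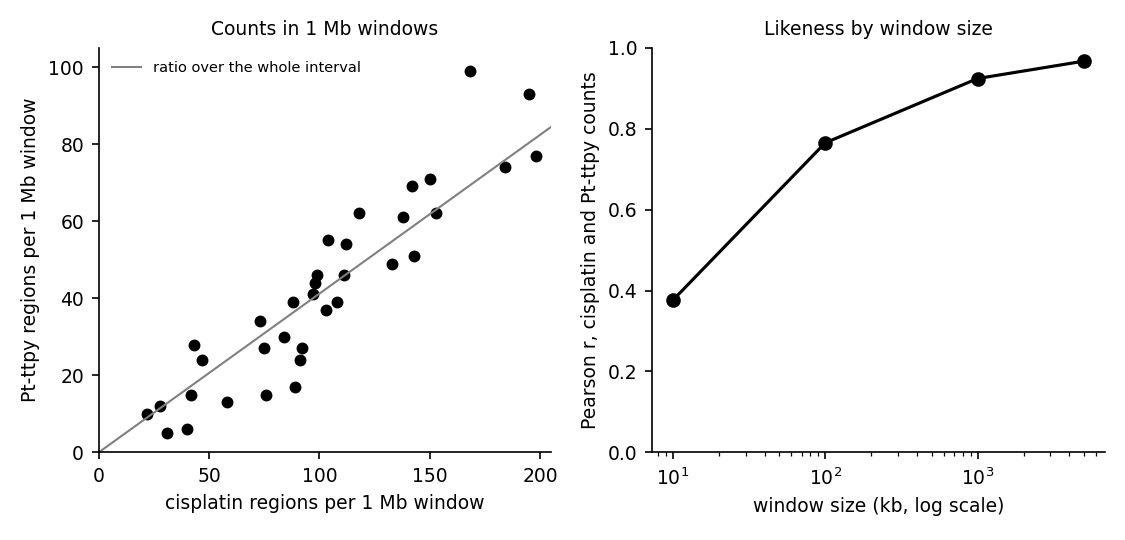
Left, Pt-ttpy against cisplatin regions in each of the 35 windows of 1 Mb, with a line at the ratio of the whole stretch (2.43 cisplatin regions per Pt-ttpy region). Right, Pearson correlation of the counts of both lists by window size (x axis, kb, log scale), which goes from 0.376 in 10 kb windows to 0.967 in 5 Mb windows.

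The correlation between the counts of the treated lists was lower in smaller windows. Counts in windows of 1 Mb had a Pearson r of 0.924 and a Spearman rho of 0.944 (35 windows). In windows of 100 kb r was 0.765 (350 windows), and in windows of 10 kb it was 0.376 (3500 windows). Smaller windows hold fewer regions, so counting error by itself lowers r. At 10 kb the variance was only 1.51 (cisplatin) and 1.45 (Pt-ttpy) times the mean, against 22.1 and 14.4 at 1 Mb. Whether the likeness itself fades at fine scale therefore cannot be read from r. These correlations are descriptions. The windows share the base composition, copy number and mappability of the same sequence. The part of these, and of counting error, in the correlations was not tested. At 100 kb the densest windows of the 2 lists were neighbours within 172 to 173 Mb, with 37 cisplatin regions (16 Pt-ttpy) in one and 23 Pt-ttpy regions (29 cisplatin) in the next. At 10 kb, 1576 of the 3500 windows held no cisplatin region, 2471 no Pt-ttpy region and 1333 neither.

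Spacing within a list varied widely. Midpoints of neighbours lay a median of 4.88 kb apart after cisplatin and 10.6 kb after Pt-ttpy, where the means were 9.91 and 24.0 kb. Of the cisplatin neighbours 510 (14.4%) and of the Pt-ttpy neighbours 119 (8.18%) were within 1 kb. With neighbours under 2 kb joined, 1963 cisplatin regions (55.6%) and 1034 Pt-ttpy regions (71.0%) stood alone, and 193 cisplatin and 41 Pt-ttpy runs had 3 or more regions. The longest runs of both lists, named after their values were seen, fell in the same place. A run of 8 cisplatin regions spanned chr1:172102774-172111682, 8.91 kb with 6 Pt-ttpy midpoints inside, and a run of 6 Pt-ttpy regions spanned chr1:172104571-172109349, with 5 cisplatin midpoints inside. No untreated region was kept in either.

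Stretches without any region were short after cisplatin. The longest was 244 kb at chr1:177222493-177466810, followed by 190 kb at chr1:165074520-165264295 and 181 kb at chr1:181060662-181241986. All 3 were also free of Pt-ttpy regions and of kept untreated regions. After Pt-ttpy the longest was 584 kb at chr1:165008690-165592481, with 10 cisplatin regions and 1 untreated region inside. The next were 453 kb at chr1:174997661-175450174, with 8 cisplatin regions, and 444 kb at chr1:176741357-177185301, with 11. In the untreated list the longest gap between kept regions, 3564 kb at chr1:182045635-185609278, held 268 cisplatin and 77 Pt-ttpy regions. It also has 75 missing untreated peak numbers, so it is not a stretch without untreated calls.

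At the limits of the stretch the folds of neighbouring regions differed little in the treated lists and more in the untreated list. The last cisplatin region before it, at chr1:164929248-164929417, and the first inside it, at chr1:165006664-165006871, both had a fold of 3.12. The last inside, at chr1:199997138-199997297, had a fold of 2.94 and the first beyond, at chr1:200020557-200020701, one of 3.12. In the Pt-ttpy list the folds were 2.88 on both sides of the lower limit, and 3.65 inside and 3.52 beyond the upper one. In the untreated list they were 4.51 before and 5.71 inside the lower limit, and 3.91 inside and 9.62 beyond the upper one.

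At the level of single regions the drugs' lists had little in common. Of the 1456 Pt-ttpy regions, 236 (16.2%, exact binomial 95% interval 14.4% to 18.2%) overlapped a cisplatin region by at least 1 bp, where 69.9% of the whole Pt-ttpy list did. Of the 3533 cisplatin regions, 236 (6.68%, 5.88% to 7.55%) overlapped a Pt-ttpy region, where 47.8% of the whole cisplatin list did. On the measured flanks the shares were 24.1% and 10.8% in the 15.0 Mb before the stretch and 26.0% and 10.2% in the 49.2 Mb after it. The midpoints of 148 Pt-ttpy regions (10.2%) lay inside a cisplatin region, while cisplatin regions covered 1.67% of the sequence. In the other direction 144 cisplatin midpoints (4.08%) lay inside Pt-ttpy regions, which covered 0.666%. The median Pt-ttpy midpoint was 1.49 kb from the nearest cisplatin midpoint, and 607 (41.7%) were within 1 kb. Where regions did overlap, in 238 pairs, they had a median of 101 bp in common and their summits lay a median of 79.5 bp apart, with 93 pairs (39.1%) within 50 bp.

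Overlap rose with -log10 q among Pt-ttpy regions, and among cisplatin regions it was clearly greater only at 7 or more. Among Pt-ttpy regions with -log10 q under 3, 125 of 921 (13.6%) lay on a cisplatin region. The share was 79 of 465 (17.0%) from 3 to under 5, 23 of 58 (39.7%) from 5 to under 7, and 9 of 12 (75.0%) at 7 or more. On the rest of chromosomes 1 to 22 and X the shares in the same classes of -log10 q were 36.0%, 57.9%, 78.2% and 95.9%. Cisplatin regions lay on Pt-ttpy regions in 6.19% of 1955 under 3, 6.16% of 1316 from 3 to under 5, 8.26% of 230 from 5 to under 7, and 46.9% of 32 at 7 or more. Elsewhere these shares were 14.3%, 31.6%, 58.6% and 90.7%. Within each class of -log10 q, the share in the stretch was below that of the same list elsewhere, a difference that was not tested. The class of 7 or more has no upper limit. It held 8482 cisplatin and 7068 Pt-ttpy regions elsewhere, whose heights were not matched to the 32 and 12 of the stretch.

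Of the 32 untreated regions, 11 marked places present in all 3 lists as deposited. Over the whole untreated list, 96.1% of regions lay on a cisplatin region and 95.1% on a Pt-ttpy region. The whole-list share on both was not computed. The untreated list kept 2.55% of its peak numbers here, so a match to a missing untreated peak could not be seen. The 11 included the highest regions of the stretch. The top region was the same in each list, at chr1:194341060-194341189 in untreated cells (fold 23.2, 76 reads), chr1:194340969-194341195 after cisplatin (fold 14.9, 85 reads) and chr1:194341050-194341391 after Pt-ttpy (fold 11.8, 90 reads). By -log10 q its rank in the whole list was 404 without drug, 462 with cisplatin and 602 with Pt-ttpy. The region with the next fold in untreated cells lay at chr1:178664541-178664753 (fold 12.0, 39 reads). It was called at chr1:178664575-178664753 after cisplatin (fold 7.79, 44 reads) and at chr1:178664561-178664753 after Pt-ttpy (fold 7.40, 56 reads), ending at the same base in all 3 lists. Folds are relative to each list's own background and reads are not scaled to equal depth, so neither gives an order of signal between lists. In 9 of the 32 untreated entries the summit lies outside the entry's own limits. The reads of such an entry belong to a summit beyond the place printed.

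A further place, at chr1:172285621-172285731 in untreated cells with 20 reads, had 32 reads after cisplatin (chr1:172285615-172285825) and 39 after Pt-ttpy (chr1:172285498-172285739). It lies in the dense window from 172 to 173 Mb. At chr1:180728552-180728659 there were 18 reads in untreated cells, 44 after cisplatin, tied for rank 2 of the stretch, and 37 after Pt-ttpy, rank 4. At chr1:189368355-189368441 the untreated region had 11 reads and stood 2 above the lowest of its list. The matching regions had 35 reads after cisplatin, rank 4, and 34 after Pt-ttpy, tied for rank 5. These 5 places hold the 5 highest cisplatin regions of the stretch and 5 of the 11 three-list places. The others had 10 to 14 reads in untreated cells, 17 to 27 after cisplatin and 20 to 33 after Pt-ttpy. The fifth Pt-ttpy region by the naming rule, at chr1:193791991-193792243 with 35 reads, lay on an untreated region of 15 reads at chr1:193792129-193792225 and on no cisplatin region.

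**Figure D4:**
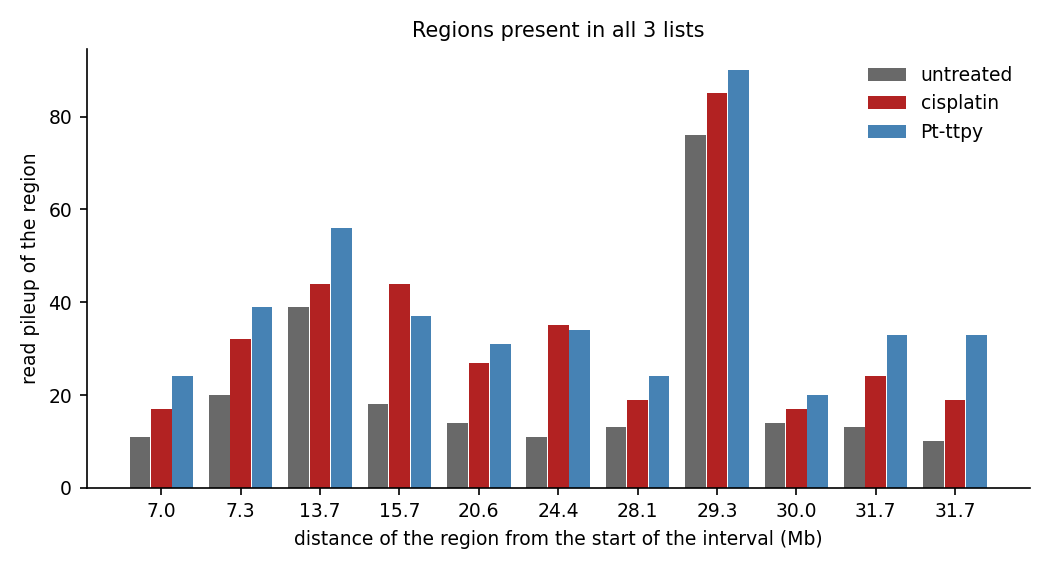
Read pileup at the summit (y axis, not scaled to equal depth) of the 11 regions present in all 3 lists as deposited. An untreated summit can lie outside the limits of its entry, as in 9 of the 32 untreated entries of the stretch. They are ordered by distance from the start of the stretch (x axis, Mb). Bars show untreated, cisplatin and Pt-ttpy. The region 29.3 Mb from the start has 76, 85 and 90 reads, and no other exceeds 56.

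Of the 11, a pair lay in the window from 196 to 197 Mb, 6268 bp apart by their untreated midpoints and the closest neighbours of the untreated list. At chr1:196728729-196728828 there were 13 reads in untreated cells, 24 after cisplatin and 33 after Pt-ttpy. At chr1:196735002-196735090 there were 10, 19 and 33. Between these midpoints lay those of 5 cisplatin and 5 Pt-ttpy regions, the ones matching the second place among them. One of the 5 Pt-ttpy regions, at chr1:196729923-196730067 with 33 reads, ties for the highest Pt-ttpy region that overlapped no region of another list, the other being at chr1:196576167-196576297, also with 33 reads. Both lie in the densest Pt-ttpy window, 196 to 197 Mb. The highest cisplatin regions found in no other list were at chr1:169928622-169928903 and chr1:197606683-197606812, each with 26 reads, and at chr1:172267778-172267996 with 25. In all, 3297 cisplatin regions (93.3%) and 1218 Pt-ttpy regions (83.7%) lay on no region of another list as deposited. Their median reads, 17 and 23, equalled those of the 225 regions of each treated list that overlapped the other drug but no untreated region.

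Of the regions in the deposited untreated list, the smaller part had a match here. Of the 32, 11 (34.4%, 18.6% to 53.2%) overlapped a cisplatin region, where 96.1% of the whole untreated list did. Of the 32, 13 (40.6%, 23.7% to 59.4%) overlapped a Pt-ttpy region, where 95.1% of the whole list did. On the measured flanks the shares were 67.7% and 58.1% before the stretch and 87.9% and 87.1% after it. Every untreated region on a cisplatin region was also on a Pt-ttpy region, 2 were on a Pt-ttpy region alone and 19 on neither. In the other direction 0.311% of cisplatin and 0.893% of Pt-ttpy regions lay on an untreated one, where 27.3% and 39.5% of the whole lists did. The untreated list kept 2.55% of its peak numbers in the stretch and 51.0% as a whole. Overlap with its missing peaks is therefore unknown. Matches also rest on the limits of the entries as deposited, 20 of which are under 101 bp wide. The 19 without a match had a median of 12 reads, against 14 for the 11 found in all 3 lists and a lowest value of 9 in the list. The highest unmatched one, at chr1:165589277-165589376, had 18 reads and a fold of 5.71.

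The untreated count rests on a list from which most peak numbers of this stretch are missing. The peak caller numbers peaks in order of position, and the numbers of both treated lists have no gap. Without drug, the first region kept in the stretch carries number 2607 and the last 3862, so 1256 numbers span it, of which 32 (2.55%) were kept and 1224 are missing. Over the whole untreated list 51.0% of numbers were kept, and on the measured flanks 9.87% before and 10.9% after the stretch. The 9201 numbers kept in the whole list are carried by 10090 entries, so some numbers repeat. With each number counted once, the stretch still held 32 regions. The labels give no reason for the gaps. Taken as numbers, the untreated count was 35.9 per Mb, beside 41.6 Pt-ttpy and 101 cisplatin regions per Mb.

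The missing numbers can be placed only between their kept neighbours, and so placed they followed the treated regions. The 32 kept regions bound 31 stretches, none of which had 0 missing numbers. Across the 26 stretches of at least 200 kb, the missing numbers per Mb ran from 19.3 to 108 (median 40.5). Their Pearson correlation was 0.894 with cisplatin and 0.916 with Pt-ttpy regions per Mb (Spearman 0.861 and 0.916). Without the densest stretch these were 0.822 and 0.853. That stretch, between the kept regions ending at 172009035 and starting at 172285621, measured 277 kb between midpoints and had 30 missing numbers, 89 cisplatin and 51 Pt-ttpy regions. The sparsest, from 168182236 to 169323554, had 22 missing numbers, 48 cisplatin and 19 Pt-ttpy regions over 1141 kb. Cisplatin regions outnumbered missing numbers in 31 of 31 stretches, and Pt-ttpy regions did so in 25. The correlations are descriptions across neighbouring stretches of 1 sequence, which share its base composition, copy number and mappability.

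**Figure D5:**
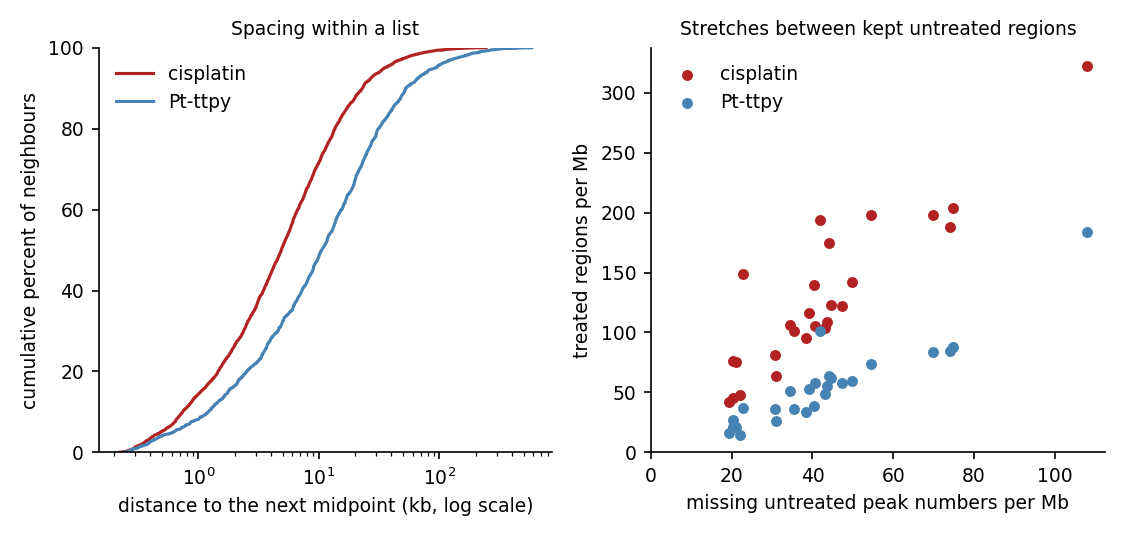
Left, cumulative percent of neighbouring regions (y axis) by the distance between their midpoints (x axis, kb, log scale), for cisplatin (median 4.88 kb) and Pt-ttpy (10.6 kb). Right, cisplatin and Pt-ttpy regions per Mb (y axis) against missing untreated peak numbers per Mb (x axis) in the 26 stretches of at least 200 kb between kept untreated regions, with higher treated values where more numbers are missing.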

How the data were processed

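γH2AX ChIP-seq of A2780 cells was used as 3 deposited peak lists, read in single reads of 50 bases. BWA 0.7.5, MACS2 2.1.0 and hg19 are named in the submitters' processing notes. How peaks were called, against which control and from which replicates was not stated in the labels, which name both treated lists for the drug and for untreated together. The authors deposited per peak a fold ratio over background, a −log10 p-value, a −log10 q-value, a score (in all peaks 10 times the −log10 q without its decimals) and a summit position, the columns being identified by the narrowPeak format. These values are the authors' and were not tested between lists. A common −log10 q limit was applied to all lists, and folds and reads of matched places are printed side by side.

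Each peak was 1 region and was placed by its midpoint. Reads at a summit were computed from the fold as (pileup + 1)/(background + 1), with 1 background per list. Poisson tail probabilities from these differed from the deposited −log10 p by at most 0.00023. Read totals are not in the lists, so the depth is otherwise unknown. Overlap meant at least 1 bp in common, and comparison values over the whole list use chromosomes 1 to 22 and X. Binomial intervals are exact (Clopper-Pearson) at 95%. Named windows are the 3 densest and 3 sparsest of each list. Named regions are the 5 with the highest −log10 q (ties by fold, then width), the 3 widest, the 3 highest of each treated list on no other list and the 3 longest empty stretches. A rule for genes was not applied, since no gene annotation of hg19 was used. Members and rules were chosen with earlier results of these data known. The overlap, merging and spacing code was tested on simulated regions. Tools were scipy 1.17.1, pandas 2.3.3, numpy 2.4.6 and matplotlib 3.10.9, under Python 3.11.15.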

Additional observations from a re-analysis of the deposited data

How the results depend on the processing

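Of 60 alternative values for 26 results, 24 stayed within 1.5 times the count or within the 95% interval of the value, and 36 moved beyond it. With a −log10 q of at least 5 the counts fell to 8 untreated, 262 cisplatin and 70 Pt-ttpy regions, the shares of the lists to 0.111%, 2.18% and 0.683%, and the ratio of the drugs was 3.74. The median spacing became 2604, 64.3 and 291 kb, and the Pt-ttpy median width 158 bp. With that limit 13% of cisplatin regions lay on Pt-ttpy regions and 45.7% the other way, 2.67% and 12.9% lay on untreated regions, and 75.0% of untreated lay on Pt-ttpy regions. With as many top regions from each treated list as the untreated list holds (9709), 64 cisplatin and 41 Pt-ttpy regions were left, 0.659% and 0.422% of those taken, at a ratio of 1.56. Merging within 1 kb gave a ratio of 2.24 and spacings of 6.45 and 12.9 kb. When 50% of both regions had to be in common, the overlaps were 15.6% of untreated with either drug, 0.142% of cisplatin and 0.343% of Pt-ttpy with untreated, and 3.03% of cisplatin and 7.35% of Pt-ttpy with each other. Within 1 kb the last pair was 21.3% and 44.5%. Shares outside the stretch were not computed for these settings, nor for overlap with the untreated list at the higher −log10 q. Windows of 5 Mb ran from 64.0 to 139 cisplatin and from 22.8 to 64.0 Pt-ttpy regions per Mb. The cause of these changes was not tested, beyond the smaller number of regions that each limit leaves. Overlap in the 16 windows with at least 100 cisplatin regions, and missing numbers counted to the nearest kept region outside (1236), were added after seeing the data and stayed within those limits. No paired analysis was possible because the labels tie both samples of a group to 1 list without values per sample, and for the same reason no replicate could be left out. Regions in genes, and their base composition, were not run, since no annotation or genome of hg19 was used.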
